A study of Homo sapiens with 10 samples.

Results

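The genes described here encode the mitochondrial respiratory chain and the ATP synthase, and they come from 2 genomes. A row of the count table was taken when its symbol started with MT.ND, MT.CO, MT.CYB or MT.ATP for the mitochondrial genome, or with NDUFA, NDUFB, NDUFC, NDUFS, NDUFV, SDH, UQCR, COX4, COX5, COX6, COX7, COX8 or ATP5 for the nuclear genome, and when it held at least 100 counts summed over the 10 libraries. The rule gave 111 of 33551 rows, 13 encoded in the mitochondrion and 98 in the nucleus. The nuclear rows comprised 80 subunit genes, 12 assembly factors, the antisense genes NDUFB2-AS1 and NDUFV2-AS1, and 4 others: the ATP synthase inhibitor ATP5IF1, ATP5S, the UQCRH copy UQCRHL and COX7A2L. The members with the fewest summed counts were NDUFA7 with 212, COX7A1 with 245, COX6B2 with 288 and NDUFB2-AS1 with 307. Just outside lay ATP5MGL with 25 counts, COX8C with 12, COX7B2, COX4I2 and ATP5MF-PTCD1 with 2 each, and COX6A2 and NDUFC2-KCTD14 with 0. The filter on low counts kept the 111 members, so none dropped out of the tests.

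The libraries came from A549, an established human lung adenocarcinoma line, in 5 derivatives: one with wild-type ABCA3 (WT), one that the labels call an ABCA3 knockout (KO) and 3 with the ABCA3 variants L101P, E292V and E690K. ABCA3 is the lipid transporter of the surfactant-storing lamellar bodies of alveolar type 2 cells. Each line gave 1 untreated library and 1 library after overnight exposure to a lentivirus with VSVG envelope that carries an ABCA3:GFP fusion (multiplicity of infection 20). Each genotype is 1 line and each combination of line and treatment is 1 library. The labels do not say whether the libraries of a line came from separate cultures, so a p-value here measures only the spread between these libraries.

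Oxidative phosphorylation moves electrons from NADH and succinate through complexes I to IV to oxygen, and complex V, the ATP synthase, uses the resulting proton gradient. Complexes I, III, IV and V are built from subunits of both genomes, while complex II is nuclear only. Mitochondrial genes are transcribed as long polycistronic RNAs that are then cut apart, whereas each nuclear subunit gene has its own promoter, and many of those promoters bind the factors NRF1 and GABPA.

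The KO pair went against its labels. ABCA3 stood at 600 CPM (the count scaled by the library total and its normalization factor) in the library labelled KO untreated and at 26.0 CPM in the library labelled KO transduced, against 356 CPM in the untreated and 602 CPM in the transduced WT library. EGFP stood at 37.9 CPM and 0.0497 CPM in the same KO libraries. EGFP was present without vector in other lines too. Untreated and then transduced, it was at 69.7 and 150.9 CPM in WT, 20.2 and 66.0 CPM in E292V, 16.5 and 18.5 CPM in E690K and 1.01 and 36.9 CPM in L101P. The E690K pair thus hardly differed in EGFP. In L101P, ABCA3 was higher in the untreated library, at 1151 against 922 CPM, so the vector contrast rests on pairs that carry its marks unequally. Results of the members for the line labelled KO and for the vector are therefore also given below with these labels exchanged where that changes a call. The libraries held 59430095 to 96811421 counts. The 5 epithelial markers EPCAM, KRT8, KRT18, KRT19 and CDH1 summed to 5364 to 11797 CPM. Of 7 alveolar type 2 markers ABCA3 alone exceeded 10 CPM, and 5, among them SFTPB and SFTPC, were under 1 CPM in the 10 libraries. The 4 endothelial markers summed to at most 1.27 CPM. Under 1 CPM were also 3 of 4 muscle, 4 of 6 fibroblast, 3 of 5 immune and 1 of 3 type 1 markers. The abundant exceptions were COL1A1 (14.2 to 116.5 CPM), CD68 (20.1 to 44.2 CPM) and CAV1 (287.3 to 635.5 CPM).

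The compact layout of the mitochondrial genome bears on how its counts can be read. MT-ATP8 and MT-ATP6, the membrane subunits of the ATP synthase, share 46 bases of the plus strand of the mitochondrial chromosome (GENCODE release 29, GRCh38), and MT-ND4L and MT-ND4, membrane-arm subunits of complex I, share 7. The stretches below are shown because a read lying in them belongs to both genes. In the first, capitals mark the start codon of MT-ATP6 and the stop codon of MT-ATP8, and in the second they mark the shared bases.
MT-ATP8/MT-ATP6, chrM:8527-8572: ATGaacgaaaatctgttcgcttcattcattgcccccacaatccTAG
MT-ND4L/MT-ND4, chrM:10737-10766: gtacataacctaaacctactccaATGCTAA

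How the authors counted reads that fall in more than 1 gene is not given in the sources used here. The log2 fold changes of MT-ATP8 and MT-ATP6 differed by at most 0.04 over the 5 contrasts below, as did those of MT-ND4L and MT-ND4. MT-ND5 and MT-ND6 are neighbours on opposite strands, share no bases and also differed by at most 0.04. MT-CO1 and MT-CO2 differed by up to 0.17 and MT-ND1 and MT-CYB by up to 0.16. Strand use in counting is not stated, so reads of MT-ND6 cannot be told apart from reads of the strand opposite to it.

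The nuclear members were looked up among RefSeq promoters (GRCh38.p14), and 79 of the 96 that are not antisense genes were found there with 98 promoters. The 250 bases before the start were searched on both strands. The NRF1 motif (GCGCA, any base, then GCGC) stood in 16.3% of the members' promoters, against 5.04% of 34943 promoters. The GABPA motif CCGGAAG stood in 23.5%, against 8.48%. The YY1 motif AAGATGGC was in 2.04% against 1.36%, and the CCAAT box, CCAAT, in 30.6% against 32%. The NRF1 and GABPA motifs were thus commoner in the members' promoters than in all promoters, and the CCAAT box was not. A gene can have several promoters in this table, and no test was run on these shares. No motif here contains another, and a match is a string of letters, not a measured binding site.

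For each of these 2 motifs, members with a match and a single promoter were taken, except those on the chromosome of UQCRB. Of these, 4 per motif are shown as examples, by falling level per length. They are not a ranking of all members with a match. Each is shown in 30 bases on the gene's own strand, with UQCRH added because it was called in a contrast below. Capitals mark the match, as CCGGAAG or its reverse complement CTTCCGG in the case of GABPA. For NRF1 they mark the motif given above or its reverse complement, which is GCGC, any base, then TGCGC.
ATP5F1C, NRF1, chr10:7788145-7788174 (+): gggagcttcgGCGCATGCGCgctgaggcct
UQCRFS1, NRF1, chr19:29213163-29213192 (-): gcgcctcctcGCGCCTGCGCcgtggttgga
NDUFB4, NRF1, chr3:120596263-120596292 (+): ctctgctaacGCGCAGGCGCacttcctgaa
UQCRC1, NRF1, chr3:48609674-48609703 (-): gtacggtactGCGCCTGCGCcgcgaccgcc
COX6B1, GABPA, chr19:35648293-35648322 (+): agtccccacctctctcagCTTCCGGctggt
COX8A, GABPA, chr11:63974590-63974619 (+): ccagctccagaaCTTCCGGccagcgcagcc
NDUFA1, GABPA, chrX:119871774-119871803 (+): ttccgtcgcttCTTCCGGagccgtacgtgg
NDUFB7, GABPA, chr19:14572072-14572101 (-): gcctaaatgacCCGGAAGctgtgtctgact
UQCRH, GABPA, chr1:46303641-46303670 (+): agtgtgccgcaCTTCCGGccagatcgccgg

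In these 9 windows the match began 12 to 63 bases before the RefSeq start, at 12 in COX6B1 and at 63 in NDUFB4.

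Levels per length separated the genomes completely. Per kb of annotated exon, the 13 mitochondrial genes averaged 1294 to 10323 CPM over the 10 libraries and the nuclear members 0.0913 to 515 CPM. The lowest mitochondrial gene, MT-ND6, thus stood 2.51 times above the highest nuclear one, ATP5F1B, which encodes the catalytic beta subunit of the ATP synthase. The median mitochondrial gene had 93.0 times the level of the median nuclear subunit. In the plot of levels per length by complex, this gap is seen in each of the 4 complexes that draw on both genomes. Its size depends on the exon length, which is the union over annotated transcripts and can exceed that of any 1 transcript. Without length the genomes overlapped. In the untreated WT library ATP5F1B had 110874 counts, against 43322 for MT-ND6, 52842 for MT-ND4L, 55211 for MT-ATP8 and 61641 for MT-ND3.

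**Figure D1:**
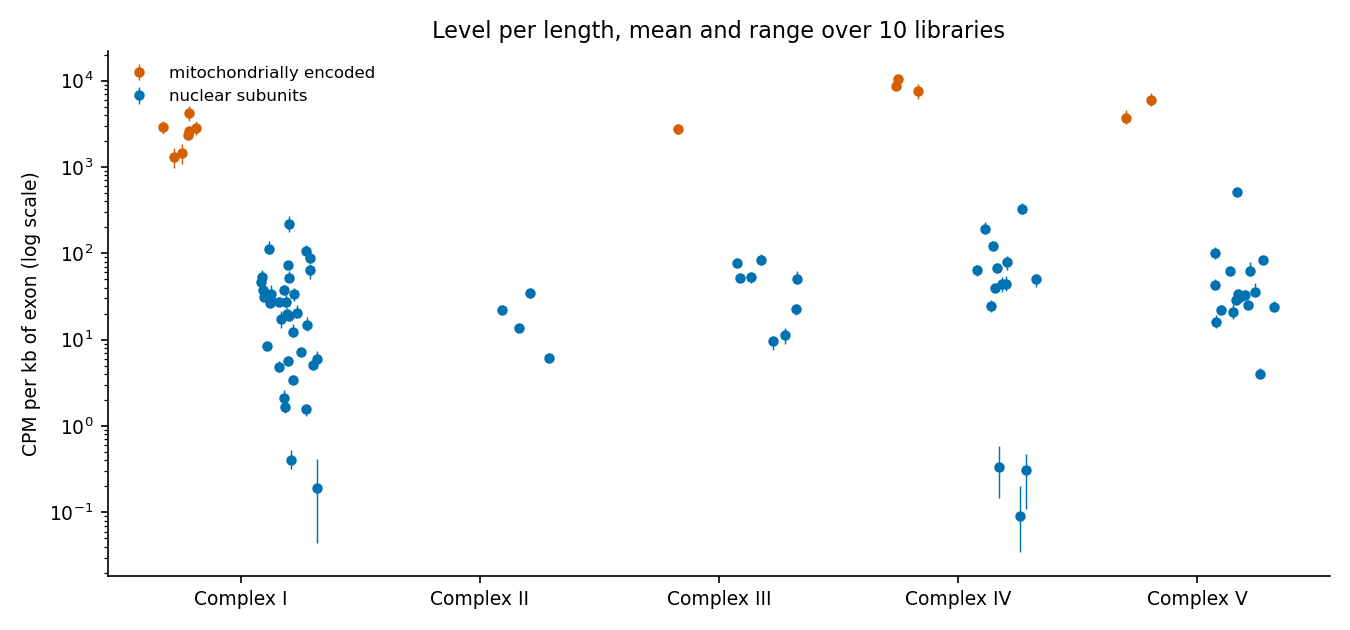
Mean level (points) and range over 10 libraries (bars) in CPM per kb of exon on a log scale, for mitochondrial genes and nuclear subunit genes of complexes I to V. The 13 mitochondrial genes lie between 1294 and 10323, above every nuclear subunit, of which ATP5F1B at 515 is the highest.

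The cytochrome c oxidase subunits led the mitochondrial order. MT-CO3, MT-CO2 and MT-CO1, of which MT-CO1 carries the oxygen-reducing centre, averaged 10323, 8631 and 7628 CPM per kb. MT-ATP6 followed with 5993 and MT-ND4 with 4229. MT-ATP8, MT-ND2, MT-ND1, MT-CYB, MT-ND4L and MT-ND3 lay between 3714 and 2357, and MT-ND5 and MT-ND6 closed the order with 1448 and 1294. The ranges over the 10 libraries of neighbours in this order overlapped, except at the steps from MT-ATP6 to MT-ND4 and from MT-ND3 to MT-ND5. Within the mitochondrial counts each gene kept a narrow share, such as 22.2% to 24.3% for MT-CO1 and 4.58% to 5.83% for MT-ND5.

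Among nuclear members of complex I, NDUFS5, NDUFA1 and NDUFB7, all accessory subunits, were highest with 219, 112 and 107 CPM per kb, and NDUFV2-AS1, NDUFB2-AS1 and NDUFA7 lowest with 0.314, 0.230 and 0.192. In complex II the iron-sulfur subunit SDHB (34.3), the flavoprotein SDHA (22.1) and SDHAF1 (21.5) led, and the assembly factors SDHAF3 (5.09), SDHAF2 (3.99) and SDHAF4 (3.38) were lowest in CPM per kb. In complex III UQCRH, the hinge protein, had 84.3, the Rieske protein UQCRFS1 76.4 and UQCRQ 53.2 CPM per kb, against 11.4 for UQCRB, 9.53 for UQCR11 and 0.529 for UQCRHL. The low place of UQCRB comes with 9715 annotated exon bases, since its mean level without length was 110 CPM, near the 119 CPM of UQCRH.

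In complex IV, COX6B1 (329), COX8A (189) and COX5A (122) were highest in CPM per kb. The lowest were NDUFA4L2 (0.332), COX7A1 (0.306) and COX6B2 (0.0913), which are isoforms known from particular tissues or hypoxia. The widespread isoform exceeded the restricted one 884 times for COX6B1 and COX6B2, 311 times for COX7A2 and COX7A1 and 166 times for NDUFA4 and NDUFA4L2, as ratios of mean CPM. COX4I1 and COX6A1 averaged 188 and 92.0 CPM, while their partners COX4I2 and COX6A2 were too rare to be members. COX7A2L, a factor of supercomplex assembly, averaged 93.4 CPM. In complex V, ATP5MD (100.5) and ATP5F1C (84.1) followed ATP5F1B, and ATP5MG (16.1), ATP5PO (4.01) and ATP5S (1.61) were lowest in CPM per kb.

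Annotated overlap went with low levels. The 13 subunit genes that share at least 10% of their exon bases with another gene on the same strand had a median of 5.91 CPM per kb, against 34.1 for the other 67. NDUFA7 shares 32.3% with AC010323.1, COX6B2 30.9% with AC020922.1 and ATP5PO 19.6% with AP000311.1. The part of shared reads in these low levels was not tested, and the levels of such genes, of UQCRHL and UQCRH, and of the antisense genes and their partners are uncertain.

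The summed level of each genome differed between libraries. The 13 mitochondrial genes together took 4.27% of the counts in the untreated WT library (95% Wilson interval 4.27% to 4.28%) and 5.71% in the transduced KO library (5.70% to 5.72%), an interval that covers counting error only. Summed, untreated and then transduced, WT held 42018 and 51669 CPM, KO 54962 and 57612 CPM, L101P 47989 and 47191 CPM, E292V 44931 and 47098 CPM, and E690K 51729 and 56709 CPM. The untreated WT library was the lowest of the 10, and the KO and E690K lines held the 4 highest values.

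The nuclear members had another order. Summed, untreated and then transduced, WT held 9813 and 8585 CPM, KO 8908 and 8459 CPM, L101P 8121 and 8786 CPM, E292V 8846 and 8956 CPM, and E690K 8237 and 7993 CPM. The untreated WT library, the lowest in the mitochondrial sum, was the highest of the 10 and the transduced E690K library the lowest. The untreated KO library was the third highest in both sums, and in E292V both sums were higher with vector. ATP5F1B alone made up 13.8% of the nuclear sum, followed by ATP5F1A, the alpha subunit, with 4.29% and COX6B1 with 3.55%.

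The ratio of the mitochondrial to the nuclear sum ran from 4.28 in the untreated WT library to 7.10 in the transduced E690K library. On the log2 scale, untreated and then transduced, WT had 2.10 and 2.59, KO 2.63 and 2.77, L101P 2.56 and 2.43, E292V 2.34 and 2.39, and E690K 2.65 and 2.83. The 4 highest values belonged to the E690K and KO lines, and the untreated WT library stood 0.25 below the next one. The line differences from WT are therefore given for each treatment, since they share the WT libraries. With no vector the log2 ratio was higher than in WT by 0.55 in E690K, 0.53 in KO, 0.46 in L101P and 0.25 in E292V. With vector the differences were 0.24, 0.18, -0.16 and -0.19 in the same order. The KO and E690K lines were thus above WT in both treatments, and L101P and E292V changed sign with the treatment. With the KO labels exchanged, the KO difference was 0.67 with no vector and 0.04 with vector. The mean of both was 0.39 ± 0.22 in E690K, 0.35 ± 0.25 in KO, 0.15 ± 0.44 in L101P and 0.03 ± 0.31 in E292V (SD, n = 2), and no test was run on these sums over members.

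**Figure D2:**
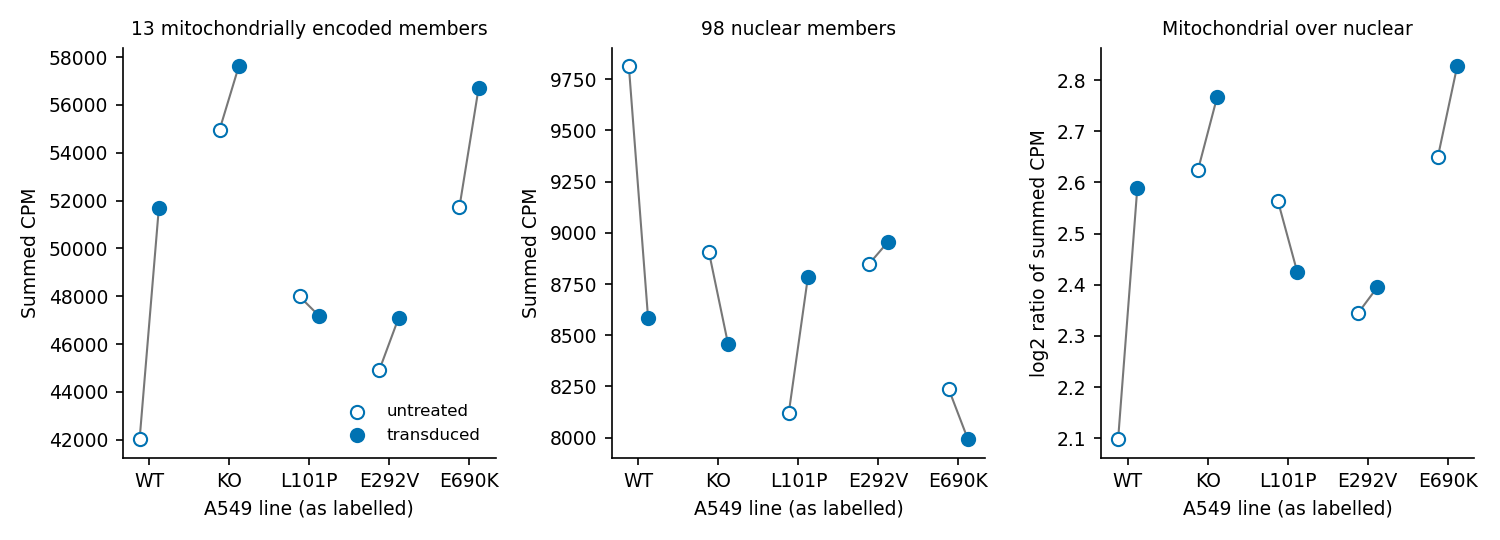
Summed CPM of the 13 mitochondrial and the 98 nuclear members and the log2 ratio of both sums in each of the 10 libraries, open points untreated and filled points transduced, joined within a line, on axes that do not start at 0. The untreated WT library has the lowest mitochondrial sum (42018), the highest nuclear sum (9813) and the lowest log2 ratio (2.10).

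For the vector, compared within the 5 lines, no member passed the test. In edgeR's quasi-likelihood fit of line and vector with Benjamini-Hochberg adjustment over 17978 genes, 0 of 111 members and 0% of all genes had an adjusted p under 0.05. DESeq2 called 0 members and 0.458% of the 24252 genes it was given. At an unadjusted p under 0.05 in edgeR, 7 of 13 mitochondrial genes were higher and 2 of 98 nuclear members lower, against 4.45% of all genes higher and 2.43% lower. The 13 mitochondrial genes had positive log2 fold changes, from 0.06 for MT-ND2 to 0.16 for MT-ND5 and MT-ND6, with a median of 0.09, while 50.3% of all genes were above 0. The nuclear median was -0.04, with 75 of 98 below 0, beside 0.00 and 49.7% for all genes.

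MT-CO1, MT-CO2, MT-CO3 and MT-ND3 were higher with vector in 5 of 5 lines, and the other 9 mitochondrial genes in 4 of 5. The share of all genes higher in as many lines was not computed. These counts take the KO pair as labelled, where the log2 steps of the 4 genes were 0.11, 0.03, 0.06 and 0.004. With the KO labels exchanged, each of these 4 was lower with vector in that pair. MT-CO1, untreated and then transduced, was at 9327 and 12263 CPM in WT, at 12577 and 13272 CPM in E690K, at 10601 and 11080 CPM in E292V, at 10671 and 10914 CPM in L101P, and at 12940 and 13971 CPM in KO. The step in WT exceeded those in the other lines. The nuclear members with the lowest log2 fold changes were the complex I subunits NDUFB3 (-0.16), NDUFB1 (-0.14) and NDUFB8 (-0.14), and those with the highest were NDUFC2 (0.12), SDHD (0.06) and SDHAF3 (0.06). Without the WT pair the mitochondrial median was 0.06 and the nuclear one -0.01, and with the KO labels exchanged they were 0.08 and -0.01. A fit with a separate vector term for WT, chosen because this step was seen and resting on 1 WT pair, called 0 of 111 members and 0 of 19236 genes (edgeR). At an unadjusted p under 0.05 it had 16 members, 14.4%, against 3.16% of all genes. These 16 are no independent support for the step that prompted the fit.

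**Figure D3:**
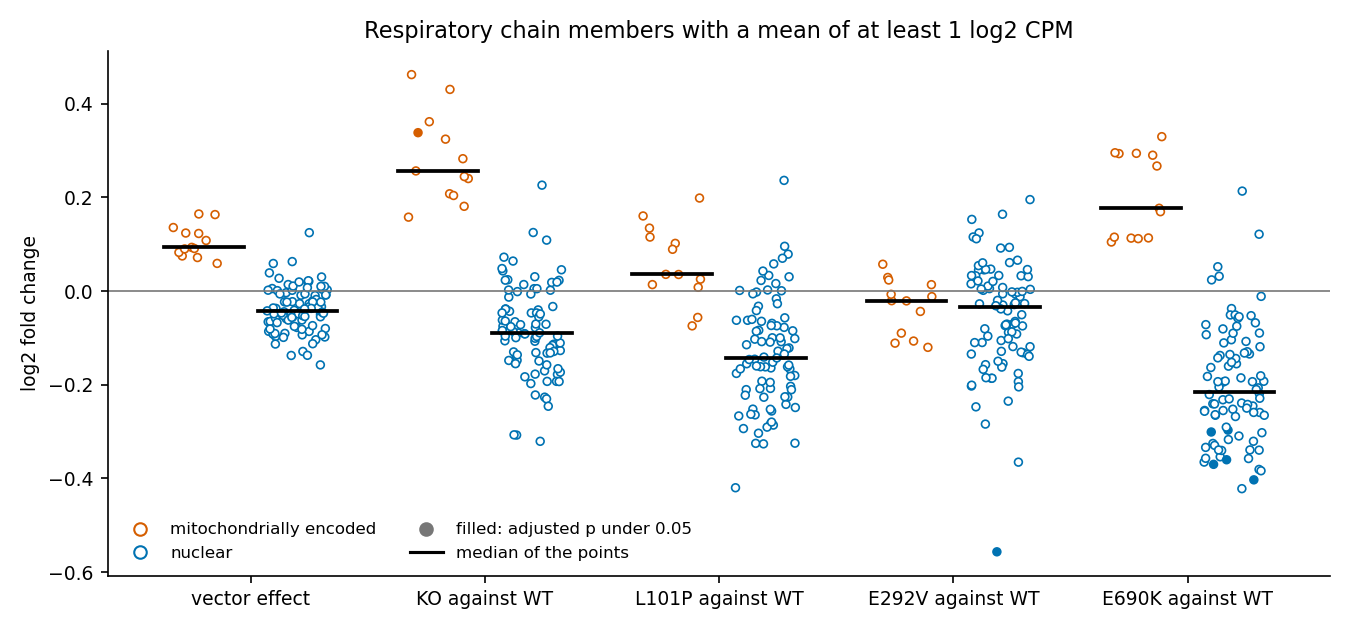
Log2 fold changes of the members with a mean of at least 1 on the log2 CPM scale in the vector contrast and the 4 line contrasts, mitochondrial beside nuclear, with bars at the medians of the points and filled points at an adjusted p under 0.05. The mitochondrial points lie above 0 in the vector, KO and E690K contrasts, and 5 nuclear points are filled in E690K.

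In the line labelled KO the mitochondrial genes were higher than in WT and 1 of them passed the test. MT-ND3, a membrane-arm subunit of complex I (chrM:10059-10404, plus strand), was at 950 and 953 CPM in the KO libraries, untreated and transduced, and at 725 and 781 CPM in those of WT. In L101P it was at 780 and 875 CPM, in E292V at 726 and 735 CPM and in E690K at 770 and 861 CPM. The KO libraries were the highest of the 10 and did not overlap with WT. MT-ND3 was picked by its call in this same contrast, so the lack of overlap is no further support for it. How many of all genes show no overlap between lines was not counted, here or for the genes below. The log2 fold change was 0.34 ± 0.07 (SE, adjusted p = 0.0394, edgeR). This was the 1 call among 111 members, while 1.8% of all genes were called, 0.807% as higher.

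The other 12 mitochondrial genes had log2 fold changes of 0.16 to 0.46 in KO against WT and adjusted p of 0.054 or more. The highest were MT-ND6 with 0.46 ± 0.11 and MT-ND5 with 0.43 ± 0.12 (SE). MT-ND5 was at 1972 and 2867 CPM in WT and at 3110 and 3358 CPM in KO, untreated and transduced, and MT-ND6 at 510 and 723 CPM in WT and at 819 and 865 CPM in KO. Neither gene overlapped between the lines, but both were picked by their values in this contrast, so this is no further support. Of the 13, 12 had an unadjusted p under 0.05 on the higher side, against 6.78% of all genes. The fitted log2 fold change was above 0 for all 13, against 47.7% of all genes. Each of the 13 was also higher than WT in both treatments, for which the share of all genes was not computed.

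In edgeR no nuclear member was called in KO against WT, and 7 of 98 were lower at an unadjusted p under 0.05, against 7.3% of all genes. Their median log2 fold change was -0.09 and 74 of 98 were below 0, against -0.01 and 52.3% for all genes. The lowest were the assembly factors NDUFAF8 (-0.32) and NDUFAF6 (-0.31) and the subunit NDUFB10 (-0.31). The highest were ATP5S (0.23), NDUFV2 (0.13) and COX6A1 (0.11), none with an adjusted p under 0.05. With the KO labels exchanged MT-ND3 kept its log2 fold change of 0.34 but its adjusted p was 0.0751 in edgeR, and no member was called. The share of all genes called was then 0.79%. Without the E690K pair no member and 0.827% of all genes were called, and without the L101P pair 11 members, 10 of them mitochondrial genes, and 6.32% of all genes. DESeq2 called 7 members, with 6 mitochondrial genes higher and NDUFB10 lower, and 2.95% of all genes. Fits that leave out 1 WT library were added after seeing the data. Without the untreated one the mitochondrial median was 0.16, the nuclear one 0.02 and no member was called. Without the transduced one the medians were 0.43 and -0.18, with 4 members and 0.524% of all genes called.

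**Figure D4:**
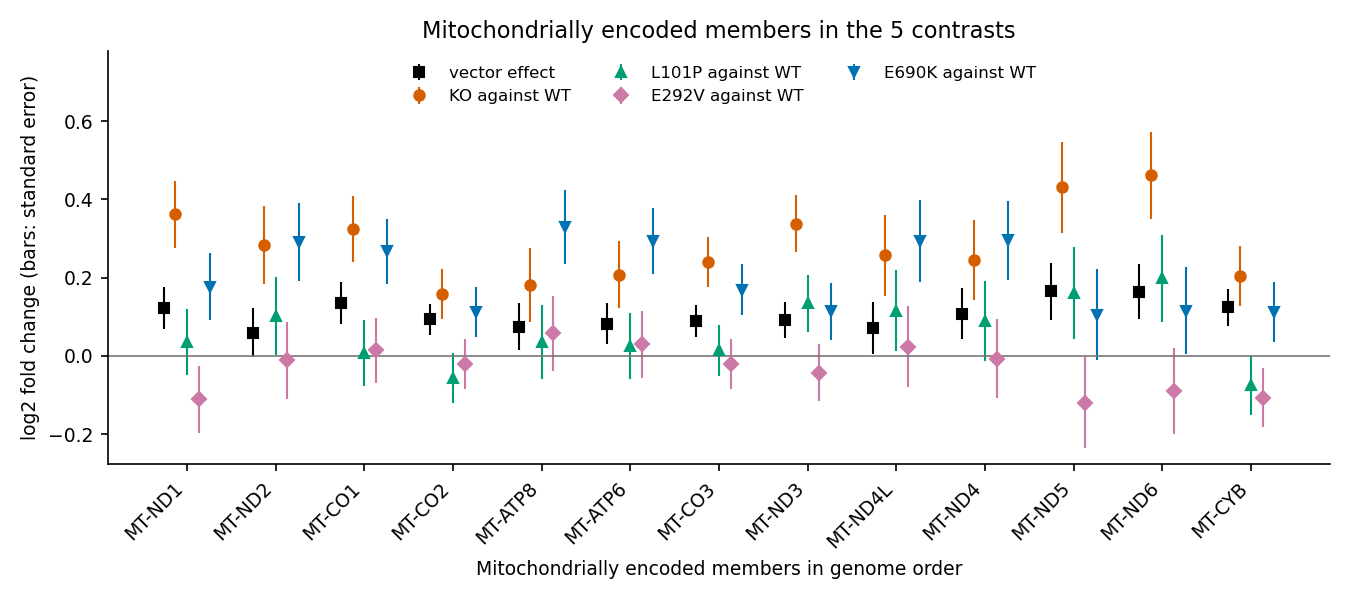
Log2 fold change and standard error (bars) of the 13 mitochondrial genes in genome order for the vector effect and for each line against WT. MT-ND5 and MT-ND6 have the highest values in KO (0.43 and 0.46), MT-ATP8 the highest in E690K (0.33), and the E292V values lie around 0.

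In L101P against WT no member passed edgeR's test, where 3.94% of all genes did, while DESeq2 called UQCRH and ATP5MF lower and 4.89% of all genes. At an unadjusted p under 0.05, edgeR had 22 of 98 nuclear members lower, 1 higher and no mitochondrial gene in either direction, against 8.94% of all genes lower and 9.37% higher. The mitochondrial median log2 fold change was 0.04, with 11 of 13 above 0 (all genes 47.6%), and the nuclear one -0.14, with 83 of 98 below 0 (all genes 52.4%). SDHAF3 (-0.42), NDUFB3 (-0.33) and NDUFS5 (-0.33) had the lowest nuclear values, and ATP5S (0.24), SDHA (0.10) and SDHAF2 (0.08) the highest. In complex III, 9 of 9 nuclear members were below 0, with a median of -0.22. Without the untreated WT library the mitochondrial median was -0.06, with 1 of 13 above 0, and the nuclear one -0.04. Without the transduced WT library they were 0.18, with 12 of 13 above 0, and -0.22, so the sign of the mitochondrial median turned on which WT library was kept.

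In E292V against WT 1 member was called, on the lower side, as were 1.05% of all genes, 0.756% as lower. It was NDUFB11, an accessory subunit of the complex I membrane arm encoded on the X chromosome (chrX:47142216-47145504, minus strand). Its levels were 71.6 and 70.9 CPM in E292V, untreated and transduced, and 107.9 and 101.7 CPM in WT. They were 98.9 and 95.1 CPM in KO, 93.8 and 101.6 CPM in L101P and 87.3 and 82.9 CPM in E690K. The E292V libraries were the lowest of the 10, with a log2 fold change of -0.56 ± 0.08 (SE, adjusted p = 0.00884, edgeR), lower in both treatments. Without the untreated WT library the value was -0.52 with an adjusted p of 0.0774 in edgeR.

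NDUFB11 shares 44.9% of its exon bases with RBM10 on the opposite strand, and RBM10 had a log2 fold change of -0.24 with an adjusted p of 0.263 (edgeR). The 5 nearest tested genes on each side of NDUFB11, listed after seeing the data, were below 0 in E292V in 10 of 10 cases with a median log2 fold change of -0.42. Of them UBA1 (-0.45), CDK16 (-0.48) and USP11 (-0.42) were called. In E690K 5 of the 10 were below 0, with a median of 0.02 and no call. Farther away on the chromosome, HSD17B10 (-0.50) and PDHA1 (-0.39), which are described below among other mitochondrial genes, were also called lower in E292V. The other X-linked members, NDUFA1 and COX7B, had -0.12 ± 0.11 and -0.003 ± 0.095 (SE). Over the whole chromosome, also counted after seeing the data, 66 of 559 tested genes were called lower in E292V and 1 higher, so that 11.8% were lower against 0.756% of all genes. These 66 were part of 136 genes called lower in that contrast. In E690K 13 X-linked genes were called lower, 2.33% of the 559, and 16 higher. The part of the X chromosome in the lower NDUFB11 level was not tested.

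The medians of both genomes in E292V depended on the WT library they were set against. In the fit of the 10 libraries the mitochondrial median log2 fold change was -0.02, with 4 of 13 above 0 beside 49.8% of all genes, and the nuclear one -0.03, with 63 of 98 below 0 beside 50.2%. Without the untreated WT library they were -0.14, with 0 of 13 above 0, and 0.06. Without the transduced WT library they were 0.13, with 12 of 13 above 0, and -0.13. At an unadjusted p under 0.05, 5 nuclear members were lower in the 10 libraries, against 6.25% of all genes. NDUFA2 (-0.37) and SDHAF3 (-0.28) followed NDUFB11 at the low end, and ATP5S (0.20), NDUFB5 (0.16) and SDHAF4 (0.15) stood at the high end.

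E690K had the most calls, 5 nuclear members, all lower, with 5.38% of all genes called and 2.33% called lower. They belong to complexes I, III, IV and V. UQCRB, the ubiquinone-binding protein of complex III (chr8:96225920-96235634, minus strand), was at 98.4 and 87.6 CPM in the untreated and transduced E690K libraries and at 128.7 and 117.3 CPM in those of WT. The other 6 libraries lay between 101.4 and 134.0 CPM, so both E690K values were the lowest of the 10. The log2 fold change was -0.40 ± 0.09 (SE, adjusted p = 0.0188, edgeR).

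UQCRH, the hinge protein of the same complex (chr1:46303631-46316776, plus strand), was at 136.5 and 124.2 CPM in WT and at 109.7 and 102.5 CPM in E690K. L101P was as low, at 105.2 and 107.4 CPM, and KO lay between at 119.1 and 116.2 CPM, while E292V was at 127.5 and 139.1 CPM. The log2 fold change against WT was -0.30 ± 0.08 (SE, adjusted p = 0.0474, edgeR).

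COX7C, a small subunit of cytochrome c oxidase (chr5:86617904-86620962, plus strand), was at 187.5 and 155.7 CPM in WT and at 137.7 and 127.7 CPM in E690K, the lowest pair of the 5 lines. Its log2 fold change was -0.37 ± 0.10 (SE, adjusted p = 0.0456, edgeR). ATP5MC1, one of the genes for the rotor ring of the ATP synthase (chr17:48892765-48895871, plus strand), was at 205.9 and 166.2 CPM in WT and at 143.7 and 145.1 CPM in E690K. These were again the lowest 2 of the 10, with a log2 fold change of -0.36 ± 0.08 (SE, adjusted p = 0.0258, edgeR). NDUFB11 was the fifth, at -0.30 ± 0.08 (SE, adjusted p = 0.0385, edgeR). For each of the 5 genes both E690K libraries lay below both WT libraries. The 5 were picked by their calls in this same contrast, so the lack of overlap is no further support for them.

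**Figure D5:**
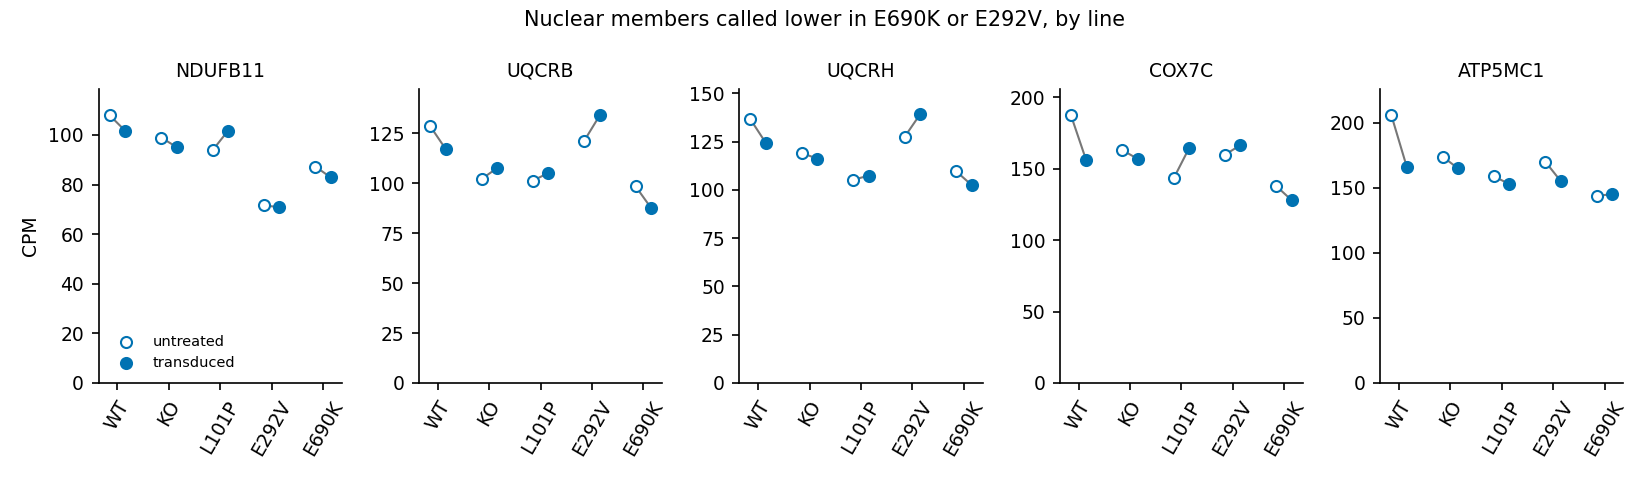
Levels in CPM of the 5 nuclear genes called in E690K or E292V against WT, in the untreated (open) and transduced (filled) library of each line, on axes that start at 0. E690K has the lowest pair for UQCRB, COX7C and ATP5MC1, and E292V the lowest pair for NDUFB11 (71.6 and 70.9).

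Most nuclear members lay below 0 in E690K. Of all 98, the 5 called genes included, 89 were below 0 with a median log2 fold change of -0.21, against 52.6% and -0.02 for all genes, and 42 were lower at an unadjusted p under 0.05, against 10.2% of all genes. By complex, the median was -0.19 in complex I (44 of 47 below 0), -0.13 in II (7 of 8), -0.30 in III (8 of 9), -0.25 in IV (13 of 15) and -0.19 in V (17 of 19). The 12 assembly factors were below 0 with a median of -0.18. The X-linked NDUFA1 and COX7B had log2 fold changes of -0.33 ± 0.11 and -0.32 ± 0.10 (SE), with adjusted p of 0.117 and 0.075 (edgeR).

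The mitochondrial genes stood on the other side of 0 in E690K, all 13 above it, as were 47.4% of all genes. The 13 log2 fold changes ran from 0.10 for MT-ND5 to 0.33 for MT-ATP8, with a median of 0.18, and the smallest adjusted p was 0.0669, for MT-ATP6 (edgeR). MT-ATP8 was at 821 and 951 CPM in E690K, untreated and transduced, and at 650 and 761 CPM in WT, with no overlap. As it was picked for the highest of these values, this is no further support. At an unadjusted p under 0.05, 7 of 13 were higher, against 9.12% of all genes. Except for MT-ND5, which was lower than WT with vector (2803 against 2867 CPM), each was higher in both treatments.

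The E690K calls depended on single libraries. Without the untreated WT library, in a fit added after seeing the data, none of the 111 members and 1.9% of all genes were called in edgeR, and the mitochondrial and nuclear medians were 0.11 and -0.10. The log2 fold changes of the 5 genes were then -0.32 for UQCRB, -0.26 for NDUFB11, -0.23 for ATP5MC1, -0.22 for UQCRH and -0.22 for COX7C, below 0 in each case. Without the transduced WT library 17 members and 3.26% of all genes were called, 12 nuclear genes lower and 5 mitochondrial genes higher. Without the KO, E292V or L101P pair edgeR called 1, 3 and 34 members, and 3.6%, 5.29% and 11.2% of all genes. The genes lost without the KO pair had about the same log2 fold changes as before, such as -0.36 for COX7C and -0.29 for UQCRH.

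With the KO labels exchanged, UQCRB was the 1 call left in E690K, with 3.33% of all genes called. The adjusted p was then 0.0812 for UQCRH, 0.0776 for COX7C, 0.0685 for NDUFB11 and 0.0629 for ATP5MC1 in edgeR, at log2 fold changes within 0.01 of those above. With median-ratio factors UQCRH and COX7C were not called, at adjusted p of 0.0546 and 0.0521 (edgeR), and 5.48% of all genes were. DESeq2 on the 10 libraries called 21 members, with 15 nuclear genes lower and 6 mitochondrial genes higher, and 5.86% of all genes.

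Values of other gene groups are set beside those of the nuclear members, and their part in them was not tested. The 79 cytosolic ribosomal protein genes, added after seeing the data, had median log2 fold changes of -0.19 in KO, -0.24 in L101P and -0.29 in E690K, with 78 of 79 below 0 in each, and 0.01 in E292V. Called lower in edgeR were 11 of the 79 in E690K, beside 2.33% of all genes. In L101P 3 of the 79 were called lower, beside 290 of all 17978 genes, and in KO 1 of the 79, beside 178 of 17978. In E292V none was called, with 1 higher and 0 lower at an unadjusted p under 0.05. Other expressed genes with exons of up to 1500 bases had medians of -0.03, -0.06, -0.14 and -0.11 in KO, L101P, E690K and E292V, and those over 6000 bases 0.02, 0.03, 0.04 and 0.02. Within the nuclear subunits, the 24 with exons of up to 1500 bases had a median of -0.27 in E690K and the 56 longer ones -0.19. CPM are shares of a library in bulk RNA, so less RNA per cell and fewer cells of a kind cannot be told apart.

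Genes that serve the chain without belonging to it were followed in 8 lists. In the vector contrast the smallest adjusted p of their genes was 0.403 (edgeR). Single calls from the lists are given below for the line contrasts. They come from the fit of the 10 libraries as labelled. Their values with the KO labels exchanged or with libraries left out are not given here, so their stability is not known. The share of all genes called was 5.38% for E690K, 3.94% for L101P, 1.8% for KO and 1.05% for E292V (edgeR). Whether any list held more calls than these shares was not tested. The mitochondrial ribosomal proteins (78 tested) had medians of -0.12 in L101P, -0.11 in E690K, -0.06 in KO and -0.01 in E292V, with a smallest adjusted p of 0.055 (edgeR). The medians of 15 genes that copy and transcribe mitochondrial DNA lay between -0.08 in L101P and 0.08 in E292V, with a smallest adjusted p of 0.153 (edgeR). TFAM, which packages mitochondrial DNA and starts its transcription, was at 79.0 and 75.9 CPM in WT and at 77.3 and 83.9 CPM in KO, with log2 fold changes from -0.02 to 0.20 in the line contrasts.

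Of 19 tested genes for mitochondrial RNA stability and processing, SLIRP, the partner of LRPPRC in holding mitochondrial mRNAs, was lower in E690K (-0.40 ± 0.09, SE, adjusted p = 0.0298, edgeR). It was at 88.8 and 71.2 CPM in WT and at 62.8 and 58.3 CPM in E690K. The lower level was not particular to E690K. L101P was at 64.1 and 67.4 CPM, KO at 74.2 and 62.0 CPM and E292V at 79.8 and 75.9 CPM. LRPPRC itself had 0.03. HSD17B10, an X-linked dehydrogenase that is also part of the mitochondrial RNase P, was lower in E292V (-0.50 ± 0.09, SE, adjusted p = 0.0205, edgeR), at 68.7 and 68.5 CPM against 104.2 and 89.5 CPM in WT.

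Of 15 nuclear regulators, PPARGC1A, a coactivator of respiratory genes, was called lower in KO (log2 fold change -4.09, adjusted p = 0.0333, edgeR). It was barely expressed, at 0.494 and 0.413 CPM in WT and 0.0533 and 0 CPM in KO, so the fitted size is imprecise. Whether the call holds with the KO labels exchanged is not given here. NRF1 had 0.24, 0.27, -0.08 and 0.26 in KO, L101P, E292V and E690K, and GABPA 0.12, 0.05, 0.20 and 0.01, with no call.

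Of 31 assembly genes for complexes III, IV and V, COX14 was lower in E690K (-0.47) and the complex III factor TTC19 higher (0.35). The adjusted p were 0.03 and 0.042 in edgeR, beside 5.38% of all genes called in that contrast. COX14 was at 24.9 and 26.0 CPM in E690K and at 37.8 and 32.7 CPM in WT. E292V was nearly as low at 27.4 and 27.1 CPM, with L101P at 27.8 and 33.6 CPM and KO at 34.1 and 32.4 CPM. Of 12 further complex I assembly genes, DMAC1 was lower in L101P (-0.53, adjusted p = 0.0241, edgeR), at 26.2 and 23.8 CPM against 41.2 and 31.2 CPM in WT. E690K was at 29.2 and 27.6 CPM, KO at 33.6 and 30.2 CPM and E292V at 33.0 and 35.7 CPM. Of 16 other electron carriers, ETFA, a subunit of the electron transfer flavoprotein, was lower in E690K (-0.29, adjusted p = 0.0394, edgeR). It stood at 176.5 and 175.5 CPM in E690K and at 229.9 and 200.8 CPM in WT. L101P was nearly as low at 183.9 and 179.0 CPM, with KO at 191.8 and 187.2 CPM and E292V at 201.7 and 199.4 CPM.

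Of 18 tricarboxylic acid cycle genes, OGDH, the first component of 2-oxoglutarate dehydrogenase, was higher in L101P (0.35) and E690K (0.43), with adjusted p of 0.0306 and 0.00828 in edgeR. It stood at 113.2 and 117.6 CPM in WT, 143.7 and 151.1 CPM in L101P and 150.1 and 161.3 CPM in E690K. Neither line overlapped with WT, but OGDH was picked by these calls, so this is no further support. PDHA1, the X-linked E1 subunit of pyruvate dehydrogenase, was lower in E292V (-0.39, adjusted p = 0.0248, edgeR), at 107.5 and 117.2 CPM against 148.4 and 145.9 CPM in WT.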

How the data were processed

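Counts of reads per gene were deposited as raw whole numbers for the 10 libraries, 1 column each, per the file headers. Per the labels' protocols, total RNA was used. The submitters' processing notes name featureCounts, Subread, edgeR, limma and GRCh38 without versions or roles, and the annotation, strand setting and handling of shared reads are not given in the sources used here. Of values from 1 to 10, 81.4% were even, against 51.5% of those over 1000, the form that counting both mates gives. Intervals therefore use read pairs, the count divided by 2. GENCODE release 29 gave lengths and coordinates and matched 98.6% of the 33551 rows. Exon length is the union over transcripts.

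Counts were tested with edgeR 4.0.16 in R 4.3.3: filterByExpr (17978 genes), TMM factors (0.972 to 1.03), and quasi-likelihood tests in an additive fit of line and vector (4 residual degrees of freedom). Line was the block for the vector effect, since same-line libraries come from the same cell line. P-values were Benjamini-Hochberg adjusted over all genes with a threshold of 0.05. The SE is the log2 fold change divided by the square root of F. The line contrasts share the WT libraries and take their error from the departure from additivity. On simulated counts with 200 of 17978 genes changed, 96.5% of log2 changes of 0.5 were recovered in the vector contrast and 59.5% in KO against WT, and 100% and 99% of changes of 1. The changed genes had a mean of at least 8 CPM, and counts were drawn with the dispersions fitted to these data. Unchanged genes called at changes of 0.5 and 1 numbered 13 and 23 in the vector contrast and 12 and 14 in KO against WT. DESeq2 1.42.0, other scalings and filters, exchanged KO labels and left-out libraries were the alternatives. A share of all genes is over the genes that the fit in question took. For DESeq2 and with no filter these were 24252 genes with any count, so those shares have another base than edgeR's 17978.

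Named were the mitochondrial genes, X-linked subunits, isoform pairs, called members, the 3 highest and 3 lowest nuclear members per contrast with under 3 calls (mean of at least 1 on the log2 CPM scale), the 3 highest and lowest per complex by length, and called genes of the 8 lists. Members, lists and rules were chosen with earlier results of these data known.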

Additional observations from a re-analysis of the deposited data

Results flagged for a closer look

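The vector change of MT-CO1 in WT lay apart. On the log2 scale WT had 0.39, while KO had 0.11, E690K 0.08, E292V 0.06 and L101P 0.03. The gap between WT and the next line took 0.785 of the whole range, past the limit of 0.71 for 5 values. This was 1 of 29 sets of 5 values examined, and chance gives about 1 in 20.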

How the results depend on the processing

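The vector effect gave 0 called members under every alternative, among them the fit with no replicate block (0 members). Beside each count of members stands the share of all genes called, over the genes that each fit took. For KO against WT the 1 called member (1.8%) became 10 with no filter on low counts (4.05%), 7 with DESeq2 (2.95%) and 0 with the KO labels exchanged (0.79%). Leaving out libraries gave 0 to 11, with 0 without the E690K pair (0.827%) or the untreated WT library (0.746%), 4 without the transduced WT library (0.524%) and 11 without the L101P pair (6.32%). For L101P the count of 0 (3.94%) became 3 with no filter (5.93%) and 2 with DESeq2 (4.89%), and 0 to 1 with libraries left out, 1 without the transduced WT library (0.944%). For E292V the 1 call (1.05%) became 2 with no filter (2.73%), and 0 to 2 with libraries left out, 0 without the untreated WT library (0.0683%) and 2 without the L101P pair (3.89%). For E690K the 5 calls (5.38%) became 3 with median-ratio factors (5.48%), 26 with no filter (6.84%), 21 with DESeq2 (5.86%) and 1 with the KO labels exchanged (3.33%). Leaving out libraries gave 0 to 34, with 0 without the untreated WT library (1.9%), 1 without the KO pair (3.6%), 3 without the E292V pair (5.29%), 17 without the transduced WT library (3.26%) and 34 without the L101P pair (11.2%). The cause was not tested. UQCRB kept its E690K call in each of these except without the untreated WT library. No alternative reversed a called member. The differences between the genomes' summed levels moved by less than their spread over pairs under the alternatives tried for them. For the line contrasts these alternatives changed only genes or scaling and left out no library, and the spread is an SD of 2 pairs. They therefore cannot show that the line differences hold with other libraries. The L101P and E292V differences changed sign with the treatment, as given above. The single WT libraries were left out after seeing the data. Each genotype is 1 line and 1 library per treatment, so clone and genotype cannot be told apart.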
